A study of Homo sapiens with 4 samples.

Results

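Arsenic trioxide (ATO) enters cells, is bound by thiols, and can be reduced and methylated before it leaves them. The 8 genes followed here encode known steps of this route: the aquaglyceroporins AQP3, AQP7 and AQP9, purine nucleoside phosphorylase (PNP), the glutathione transferases GSTO1, GSTO2 and GSTP1, and the arsenite methyltransferase AS3MT. They were chosen by name and not by a threshold on their signal. All their probes were taken, dim ones included, which gave 10 probes of the 41000 on the array: 9 carry the gene's name in the scanner output, and 1 is listed there as NP and was matched to PNP through its RefSeq accession. AQP3 and GSTO1 have 2 probes each and the other genes 1.

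NB4 is an established human cell line from acute promyelocytic leukemia. The comparison is between naive NB4 cells (2 flasks) and an ATO resistant line derived from NB4 and named NB4-VM-AsR1 in the labels (2 flasks). The labels name no further allele or agent for either line. Both lines were grown in RPMI medium with FBS, and per the study's methods the resistant cells, which are 1 clone, had been without ATO for a week. The methods write the clone as NB4-EV-AsR1, and both names are taken here for the same line, which no source states. No flask is labelled as treated with ATO at harvest, and a difference between these lines cannot be told apart from a difference between clones. Each flask was hybridized to 1 Agilent array, all 4 on 1 slide, with the naive flasks in the first positions and the resistant flasks in the last, so that line and position cannot be told apart.

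Aquaglyceroporins are channels for glycerol and water that also let arsenite through as the uncharged trihydroxide. AQP9 is best known from liver and leukocytes, AQP7 from fat and testis, and AQP3 from skin and kidney. PNP, a purine salvage enzyme, can use arsenate in place of phosphate, and the product is easily reduced to arsenite by thiols. The omega class enzymes GSTO1 and GSTO2 reduce methylated arsenic species, AS3MT transfers methyl groups from S-adenosylmethionine, and GSTP1 binds or conjugates glutathione adducts.

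The probes are 60 bases long, and their positions are given on hg19. The probe sequences of GSTO1 are shown because both report on almost the same stretch of transcript, and those of GSTO2, AS3MT and AQP7 because their signal was absent or nearly so and a reader may want to check what was assayed. In GSTO1 the capitals mark the 37 bases that both probes share. In GSTO2 they mark the bases identical to the joined GSTO1 probes in the best ungapped alignment, 50 of 60 (83.3%).
GSTO1, probe 1, chr10:106025842-106025901, plus strand: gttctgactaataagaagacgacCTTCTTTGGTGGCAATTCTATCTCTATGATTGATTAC
GSTO1, probe 2, chr10:106025865-106025924, plus strand: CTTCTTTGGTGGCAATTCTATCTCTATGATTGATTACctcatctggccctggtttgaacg
GSTO2, chr10:106057346-106057405, plus strand: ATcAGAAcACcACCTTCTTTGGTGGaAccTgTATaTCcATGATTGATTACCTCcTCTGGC
AS3MT, chr10:104650300-104650359, plus strand: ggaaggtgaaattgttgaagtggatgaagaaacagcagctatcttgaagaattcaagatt
AQP7, chr9:33395074-33395133, minus strand: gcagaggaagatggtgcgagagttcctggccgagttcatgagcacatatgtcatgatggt
The 2 GSTO1 probes are thus near repeats of one measurement, while the 2 AQP3 probes, at chr9:33441565-33441624 and chr9:33441765-33441824 on the minus strand, are separated by 140 bases and share none. No probe of another named gene shared a run of 20 bases with any of the 10 probes. The files give positions but no exon annotation.

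Signals were compared as log2 of the processed signal minus the 75th percentile of the array, so that 0 is the upper quartile of an array's probes. This scale serves to compare flasks for 1 probe, never 1 probe with another. Between 27922 and 28244 probes per array were well above background by the scanner software's own flag, and 457 to 565 were saturated. The naive flasks differed from each other more than the resistant flasks did, with an SD of the difference over probes of 0.71 against 0.37. Spike-in controls also set the first naive flask apart: after the shift, the median log2 difference of the 6 in range from the second naive flask was -1.31 there, against -0.24 and -0.27 in the resistant flasks. Of 8 promyelocytic markers, 7 were well above background on every array and ELANE on 3. Their summed level ranged from 7.08 to 7.23 in the naive and from 7.32 to 7.58 in the resistant flasks, as log2 of the summed signal. MPO was saturated on all 4 arrays and CTSG on 2, so that this sum has a ceiling. ELANE and AZU1 were called higher and ANPEP lower in the resistant line. Of 4 genes listed as markers of other cells, CD3E, EPCAM and PECAM1 had signal well above background on every array and COL1A1 on 0. Their summed levels were from 1.63 to 1.81 in the naive and from 1.90 to 2.06 in the resistant flasks. None of these 4 was called changed, and whether NB4 cells themselves express them was not tested. Their part in the results was not tested.

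The 8 genes fell into 3 kinds by signal. AQP3 and GSTO1 were well above background and within range in every flask. GSTP1 and PNP were at the top of the scanner's range. AQP7, AQP9, GSTO2 and AS3MT lay at or near background. In limma none of the 6 probes tested, those of AQP3, GSTO1, GSTP1 and PNP, was called changed between the lines at an adjusted p below 0.05 and at least 2-fold, and 0 had an unadjusted p below 0.05. The GSTP1 and PNP probes were saturated on 4 and 3 arrays, so their lack of a call shows no lack of change. Of all 28221 probes tested, 5.27% were called, 2.3% as higher and 2.97% as lower in the resistant line.

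**Figure D1:**
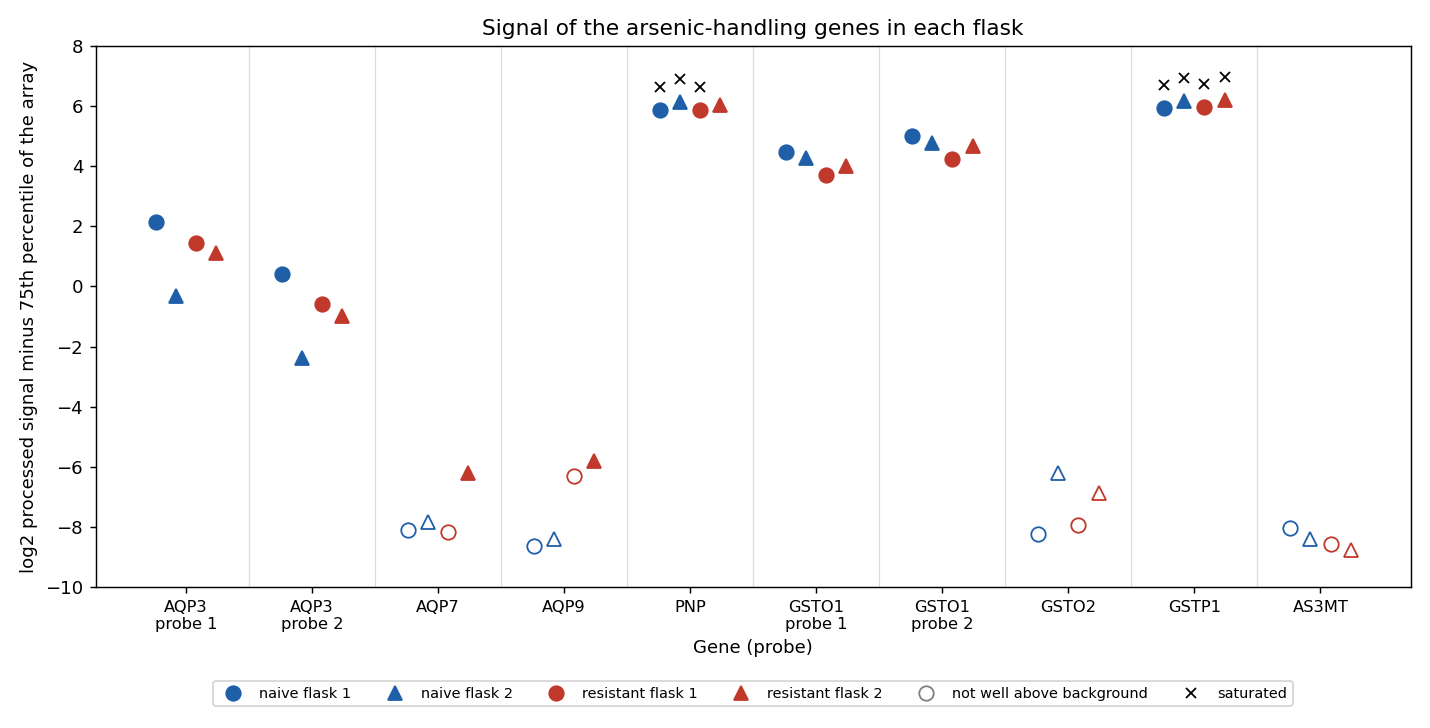
Signal of each of the 10 probes (horizontal axis) in each flask, as log2 processed signal minus the 75th percentile of the array (vertical axis); colour gives the line, shape the flask, open symbols a probe not well above background, and a cross a saturated spot. The AQP3 probes separate the naive flasks with the resistant flasks between them, GSTP1 and PNP sit at the ceiling, and AQP7, AQP9, GSTO2 and AS3MT near the floor.

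AQP3, the only aquaglyceroporin of the 3 with signal in every flask, differed more between the 2 naive flasks than between the lines. The processed signal of probe 1 was 4780 and 715 in the naive flasks and 2825 and 1815 in the resistant flasks, or 2.15 and -0.33 against 1.43 and 1.11 on the log2 scale. Both resistant flasks lay between the naive flasks. Probe 2 gave 1423 and 173 in the naive and 691 and 431 in the resistant flasks, or 0.40 and -2.37 against -0.60 and -0.97. The order of the 4 flasks was the same on both probes. The difference between the naive flasks came to 5.57-fold on probe 1 and 6.84-fold on probe 2. Between the resistant flasks it was 1.25-fold and 1.29-fold.

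Few probes separated the naive flasks as widely. Of 28132 probes, 0.711% differed by as much as AQP3 probe 1 in either direction and 0.427% by as much as probe 2. In the direction of AQP3, higher in the first naive flask, these were 50 and 24 probes. Between the resistant flasks a difference as large as that of AQP3 was common, in 24.3% and 19.6% of probes. The spike-in controls moved the other way, lower in the first naive flask, and their part in the AQP3 difference was not tested.

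**Figure D2:**
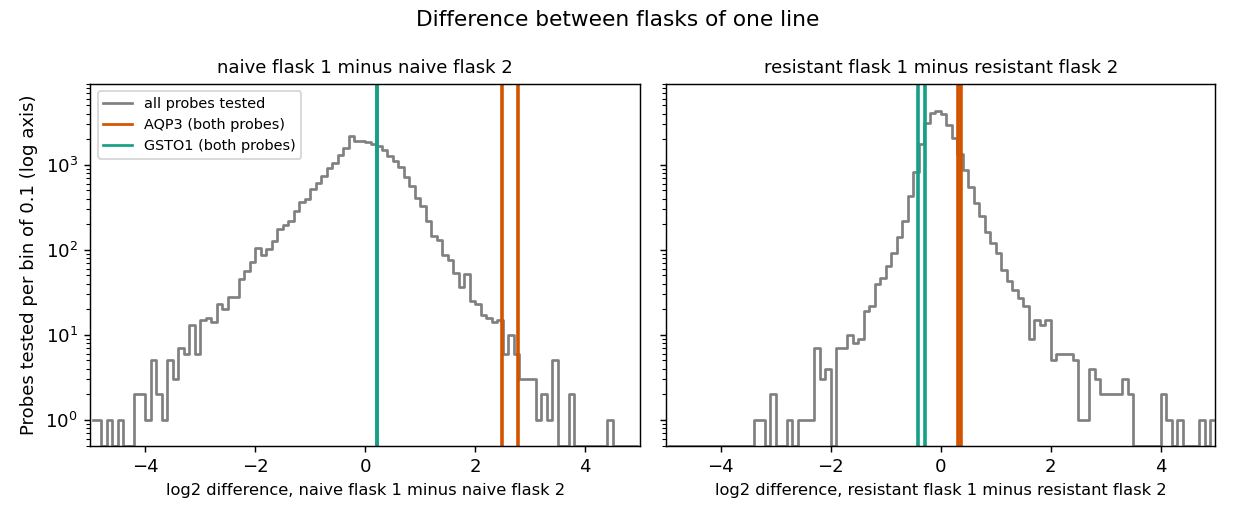
Distribution over the probes tested of the log2 difference between the 2 naive flasks (left) and between the 2 resistant flasks (right), as probes per bin of 0.1 on a log axis, with vertical lines for both AQP3 and both GSTO1 probes. AQP3 lies far out in the tail on the left, at 2.48 and 2.77, and within the bulk on the right, at 0.32 and 0.37; GSTO1 lies within the bulk in both.

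The change of AQP3 from naive to resistant was 0.36 on the log2 scale for probe 1 (SE 0.80, 95% interval -1.66 to 2.38, adjusted p = 0.849 in limma) and 0.20 for probe 2 (SE 0.89, interval -2.04 to 2.45, adjusted p = 0.928 in limma). The intervals include a fall as well as a rise, from 0.317 to 5.20 of the naive level on probe 1 and from 0.243 to 5.45 on probe 2. Its sign turned with the naive flask used. With 1 naive flask left out, the probe's own spread comes from the resistant pair alone, and limma combines it with the variance shared across probes. The smaller p-values below thus take no account of the difference between the naive flasks. Without the first naive flask AQP3 was called higher in the resistant line on both probes, by 1.60 and 1.59 (limma adjusted p = 0.00621 and 0.0072), in a fit where 6.1% of probes were called higher. Without the second naive flask it was lower on both, by -0.88 (adjusted p = 0.0398, under 2-fold) and -1.18 (adjusted p = 0.0175, called) in limma, where 7.2% of probes were called lower. Without the first resistant flask the change was 0.20 on probe 1 and 0.02 on probe 2, and without the second it was 0.52 and 0.39.

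**Figure D3:**
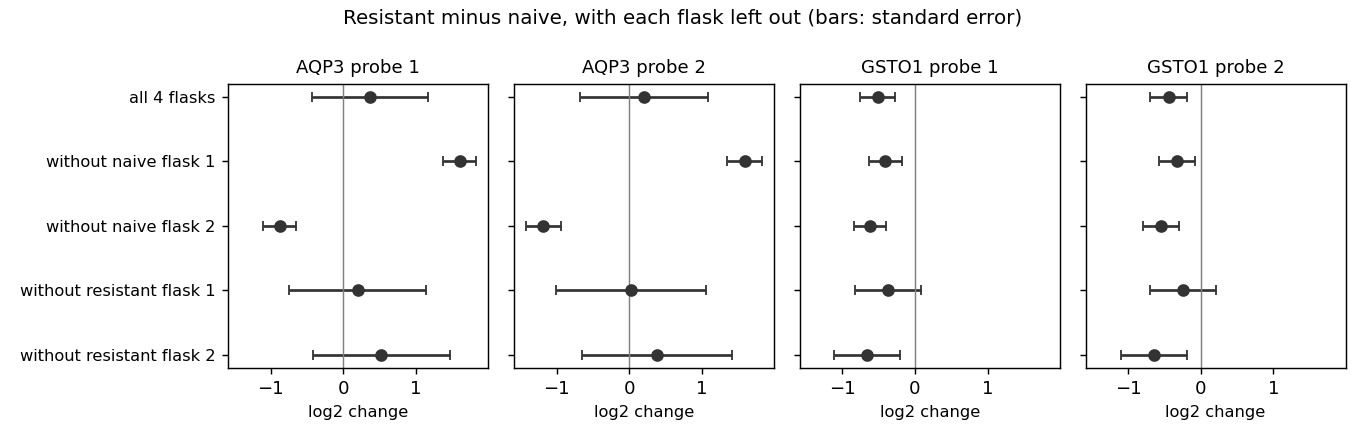
Log2 change from naive to resistant of the AQP3 and GSTO1 probes, with all 4 flasks and with each flask left out in turn; points are limma estimates and bars their standard errors. The AQP3 estimates move from 1.60 and 1.59 to -0.88 and -1.18 with the naive flask left out, while the GSTO1 estimates stay below 0.

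AQP9 was near background in both lines, with the higher values in the resistant line. Its probe, at chr15:58477884-58477943 on the plus strand, had a processed signal of 2.74 and 2.65 in the naive flasks and of 13.4 and 15.1 in the resistant flasks. Only the second resistant flask was flagged well above background. The log2 values of -8.62 and -8.41 in the naive and -6.29 and -5.80 in the resistant flasks did not overlap. The lowest signal that counted as well above background averaged -6.26 on the naive arrays. Against it the mean of the resistant flasks, -6.04, was 1.16-fold higher, a lower bound of the fold. The first resistant flask, at -6.29, lay below that level and was not well above background, although the mean includes it. With the second resistant flask alone the bound was 1.38-fold. AQP9 was not tested under the filter on dim probes. With no filter it was called, at 2.47 on the log2 scale (SE 0.27, limma adjusted p = 0.0254). In that fit 1.01% of all probes were called higher. Both naive values were below background and were surrogates that the scanner software puts in for low spots. That fold and its SE thus do not rest on a measured naive signal. Without the second resistant flask the probe was dim in both lines and no bound can be given.

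AQP7 was flagged well above background in 1 flask of 4. Its processed signal was 3.93 and 3.91 in the naive flasks, 3.62 in the first resistant flask and 11.5 in the second. The first resistant flask lay below both naive flasks, and no fold is given. AQP7 has near-identical pseudogene copies, so that even this signal is uncertain as to its source.

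PNP was bright in all flasks and could not be compared. Its probe, at chr14:20945104-20945163 on the plus strand, had a processed signal of 63458 and 63513 in the naive flasks and of 61335 and 54842 in the resistant flasks. It was saturated in both naive flasks and the first resistant flask, and in range in the second. Therefore no fold is given. A probe with no gene name lies over it on the opposite strand, at chr14:20945120-20945179, with 44 bases in common by complement. This probe was well above background on 4 arrays and within range, at -3.79 and -2.98 in the naive and -3.47 and -2.90 in the resistant flasks. Its change was 0.20 (SE 0.37, 95% interval -0.74 to 1.14, adjusted p = 0.814 in limma).

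GSTO1 had signal well above background in every flask, and its values in the resistant line lay below the naive values by a margin that did not pass the test. Probe 1 read 4.48 and 4.27 in the naive and 3.72 and 4.01 in the resistant flasks. Probe 2 read 5.0 and 4.78 in the naive and 4.25 and 4.66 in the resistant flasks. On both probes each naive flask lay above each resistant flask. Such a separation was common: the flasks of the lines did not overlap for 52.8% of the 28054 probes with a value in every flask, and for 28.2% of them the resistant flasks were the lower ones. The change was -0.51 for probe 1 (SE 0.24, 95% interval -1.12 to 0.10, adjusted p = 0.334 in limma) and -0.44 for probe 2 (SE 0.26, interval -1.09 to 0.21, adjusted p = 0.421 in limma). The lower ends allow a fall to 0.459 and 0.469 of the naive level. With 37 bases in common, the second probe is no independent measurement of the first.

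The genes whose values followed GSTO1 probe 1 most closely over the 4 arrays, each centred on its own mean, were GNL3, COMMD10 and CUX2, at Euclidean distances of 0.0270, 0.0272 and 0.0285. The other GSTO1 probe ranked at 43. For AQP3 the same measure was taken after its values were seen. SESN3 and ZBTB26 were the nearest 2 genes to either probe, and the other AQP3 probe ranked at 5 and 3. With 4 arrays these are descriptions of shape.

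GSTO2 and AS3MT had no signal well above background in any flask. GSTO2 gave processed signals of 3.61 and 12.2 in the naive and of 4.27 and 7.20 in the resistant flasks, and AS3MT of 4.14 and 2.63 in the naive and of 2.76 and 1.94 in the resistant flasks. The GSTO2 values overlapped between the lines. The AS3MT values did not overlap, but none was flagged well above background. All except that of the first naive flask were surrogates that the scanner software puts in for low spots, so no order is read from them. The GSTO2 probe, although it resembles the GSTO1 probes printed above, was thus not well above background on an array where those probes were. The albumin gene ALB, a hepatocyte marker, was well above background on 3 arrays and APOA1 on 0. Liver is the organ best known for arsenic methylation by AS3MT.

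GSTP1, at chr11:67354050-67354109 on the plus strand, has 10 spots on each array and was saturated in all 4 flasks. Its mean processed signal was 66251 and 65290 in the naive and 65823 and 62748 in the resistant flasks, over the 8 to 10 spots kept, whose SD within an array was between 0.077 and 0.125 on the log2 scale. All flasks stood at the scanner's limit, with mean spot signals of up to 65525. No fold can be given. A rise in the level of GSTP1, or a fall that left its signal at the limit, could not be seen.

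Other genes of arsenic handling were read from 7 lists with 81 genes, 80 of which had a probe. Of the 62 tested, 4 were called higher and 2 lower in the resistant line, or 9.68% of those tested, against 5.27% of all probes. The remaining 18 with a probe did not pass the filter on dim probes. A gene is given by its brightest probe, whereas the share of all probes counts every tested probe. The shares are therefore not a like comparison, and no excess is read from them. The median log2 change over all probes tested was -0.02.

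Uptake routes other than the 3 aquaglyceroporins, 19 genes of which 12 were tested, held 3 of the 6 calls. SLC2A3, a glucose transporter of a family known to carry arsenic species, read -0.96 and -0.81 in the naive and -3.08 and -3.23 in the resistant flasks, a change of -2.27 (SE 0.22, adjusted p = 0.00622 in limma). The flasks of each line lay close together and the lines far apart. SLC20A1, a phosphate transporter, read 5.87 and 5.90 against 4.16 and 4.54, a change of -1.54 (SE 0.25, limma adjusted p = 0.0307), with the first naive flask saturated. Its other probe, saturated on 0 arrays, changed by -2.38 (SE 0.29, limma adjusted p = 0.0131). SLC34A2, a sodium-coupled phosphate transporter, was dim but rose from -5.60 and -5.59 to -4.19 and -4.14, a change of 1.43 (SE 0.22, limma adjusted p = 0.0256). With normexp in place of the scanner's own background correction it was 0.60, or 0.56 with bright local backgrounds reset, and was not called. Phosphate transporters are known to take up arsenate, whereas ATO gives arsenite. The second probe of SLC2A3 was called lower as well, at -2.55 (limma adjusted p = 0.00978). The median of the list was -0.43.

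Among 18 other glutathione transferases, 13 tested, only MGST2, a microsomal enzyme, was called. It read -0.05 and -1.02 in the naive and 1.36 and 1.56 in the resistant flasks, a change of 2.00 (SE 0.37, adjusted p = 0.0485 in limma) that lost its call under 11 of 16 alternatives. The median of the list was 0.41. In the methyl donor list, 16 genes with 13 tested, CTH, which makes cysteine from cystathionine, was called higher. It rose from -1.14 and -1.08 to 0.16 and 0.26, by 1.32 (SE 0.22, limma adjusted p = 0.0345). MAT2A and AHCY, which make S-adenosylmethionine and clear its product, were saturated on all 4 arrays. CBS, the step before CTH, read 0.06 and 2.35 in the naive and 1.96 and 2.18 in the resistant flasks, so that its naive flasks differed by -2.29, first minus second, in the direction opposite to AQP3.

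Of 7 purine salvage genes, 6 tested, ADA, which deaminates adenosine upstream of PNP, was called higher: 3.29 and 3.37 in the naive and 4.71 and 4.77 in the resistant flasks, a change of 1.41 (SE 0.22, limma adjusted p = 0.0277). None was called among the 12 tested of the reductants and phosphorolytic enzymes (13 genes, median -0.33), the 3 tested of glycerol use (4 genes) or the 3 tested of export (4 genes). Of the first of these, TXN, the thioredoxin that donates electrons to many reductases, read 5.83 and 5.62 in the naive and 4.74 and 4.87 in the resistant flasks, a change of -0.92 (adjusted p = 0.105 in limma). MTAP, a phosphorylase related to PNP, and the exporter ABCB1 were well above background on no array.

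**Figure D4:**
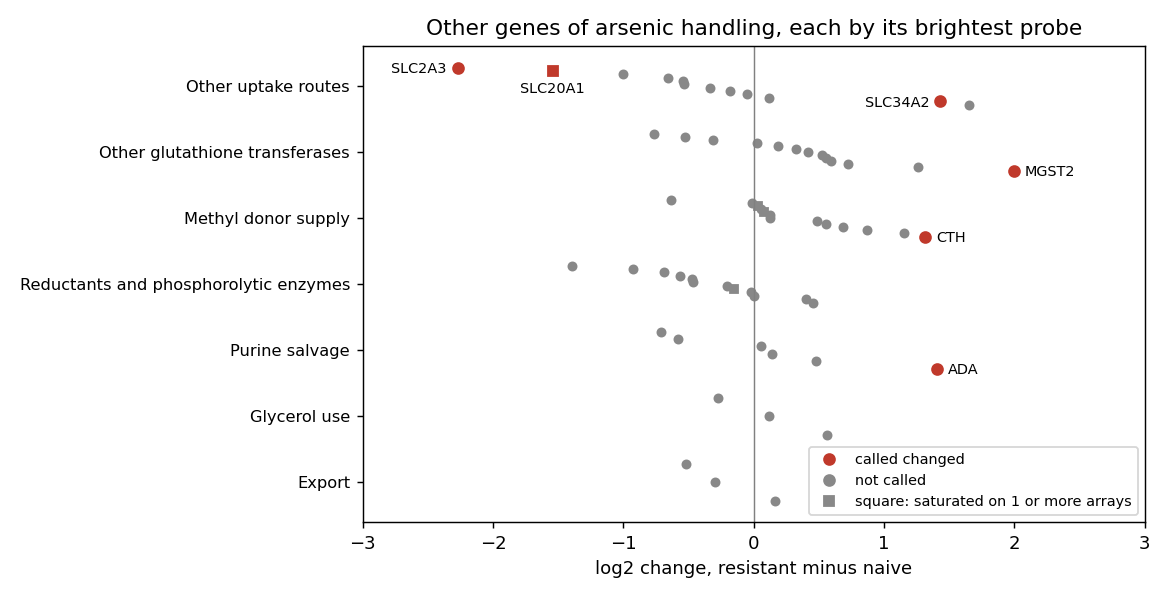
Log2 change from naive to resistant (horizontal axis) of each tested gene of 7 lists of arsenic-handling genes, by its brightest probe; red points were called changed and squares were saturated on 1 or more arrays. The 6 called genes, 4 higher and 2 lower, all lie more than 1 from 0, and most others lie within 1 of 0. Some that were not called also lie beyond 1, such as SLC2A5 at 1.65. Its naive flasks differed by 1.34 on this probe, and its other probe, not drawn, was at -0.23.

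Probes around the members on the chromosomes were also read. Of 82 probes of other genes within 0.25 Mb of a member probe, 63 were tested and 0 called in limma, with a median change of -0.0087. Of all probes tested, 5.27% were called. AQP3 and AQP7 lie on the same stretch of chromosome 9, and 13 and 12 probes were tested around them. AS3MT, GSTO1 and GSTO2 lie on chromosome 10, with 15, 5 and 3 tested.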

How the data were processed

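RNA of each flask was labeled with Cy3 and hybridized to 1 array. Images were read with Agilent Feature Extraction 10.5.1.1. In the scanner output that the authors deposited, the processed signal is a linear intensity after background subtraction, and low spots hold a surrogate. The mean spot signal and the local background, also intensities, served the normexp alternative. The log2 table that the authors deposited (GeneSpring, 75th percentile shift) was used as an alternative, and its Pearson's r with the values computed here was at least 0.9998 on each array.

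Control spots and outlier spots were dropped, log2 intensities were averaged per probe in R 4.3.3, and the array's 75th percentile was subtracted. Current symbols came through RefSeq accessions for 26494 of 41000 probes. A probe entered the test if both flasks of one line or the other had it well above background, which 28221 did. Testing was by limma 3.58.1 with Benjamini-Hochberg adjustment, and a probe was called where the adjusted p was below 0.05 and the fold 2 or more. A probe dim in a whole line has only a lower bound of its fold, taken against the lowest signal well above background on each array, or its own signal where higher. The script was tested on simulated data.

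With 2 flasks per line an exact two-sided permutation test cannot go below p = 0.333. The calls therefore depend on the variance that limma shares across probes, and precision is limited by the number of arrays. Flasks were independent per the study's methods. The members and the lists of other genes were chosen with earlier results of these data known. All members and the called list genes are named; TXN, CBS, MAT2A, AHCY, MTAP and ABCB1 were named after their values were seen. Alternatives were other background corrections, normalizations and filters, the deposited table, an intensity trend, the methods' t-test, a block for the flask number, leaving out single flasks, other thresholds, the mean over a gene's probes and a wider distance. Of the markers of other cells, 2 are not reported here.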

Additional observations from a re-analysis of the deposited data

How the results depend on the processing

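GSTO1 was lower in the resistant line under all 16 alternatives on either probe, and none called it. Normexp and the methods' t-test called 0 list genes too, so staying uncalled under them says little about GSTO1. The number of called member probes, 0, became 1 with no filter on dim probes (AQP9), and ranged from 0 to 2 when 1 flask was left out (AQP3 in each case). The AQP3 changes ranged from -0.88 to 1.60 and from -1.18 to 1.59 when 1 flask was left out, and AQP3 probe 2 was -0.015 under normexp with bright local backgrounds reset, an alternative added after seeing the data; the cause was not tested. The lower bound for AQP9 ranged from 1.09 to 1.38.

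The count of called list genes, 6, was 0 under normexp (8 at an unadjusted p below 0.05) and 0 by the methods' t-test after adjustment (15 unadjusted), 1 with no filter, where more probes are tested, and 0 to 11 when 1 flask was left out: 11 without either naive flask and 0 without either resistant flask (9 unadjusted each). The share of all probes called is not given here for each of these alternatives. The counts are therefore not read as a trait of the list genes. Calls were lost under 4 alternatives for SLC2A3, 6 each for SLC20A1, CTH and ADA, 7 for SLC34A2 and 11 for MGST2. Scale normalization and normexp moved the median change of all probes tested from -0.02 to 0.08 and 0.13. Within 1 Mb of the members, 6 of 196 neighbouring probes tested were called, where the share over all probes tested was 5.27%.

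With the flask number as a replicate block, 3 list genes were called, 1 higher and 2 lower, and 0 member probes. MGST2, CTH and ADA lost their calls (limma adjusted p = 0.0562, 0.0616 and 0.0519). The share of all probes called in this fit is not given here, so these counts are not read as a trait of the genes. Same-numbered flasks correlated at 0.119 in their deviations, over 2 pairs, and the numbers mark no shared batch in the labels.

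Signal over background limits AQP7, AQP9, GSTO2 and AS3MT, and saturation limits GSTP1 and PNP. For these 6 genes no fold was measured. Only AQP9 has a lower bound, and only 1 of its resistant flasks was well above background.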
